A study of Mus musculus with 8 samples.

Results

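The fibroblast growth factor (FGF) genes described here are 5 ligands (Fgf1, Fgf2, Fgf7, Fgf10 and Fgf18), 3 receptors (Fgfr1, Fgfr2 and Fgfr3) and 2 Sprouty genes (Spry2 and Spry4). These 10 genes were taken by symbol from the 18605 genes of the expression table, and all 10 were among the 13470 genes with enough counts to test. FGF ligands are secreted proteins that bind receptor tyrosine kinases together with heparan sulfate chains on the cell surface. The bound receptor recruits adaptor proteins and passes the signal through Ras to the ERK kinases, and Sprouty proteins, themselves products of genes that this pathway turns on, inhibit it. In the skeleton the pathway is known for its part in the growth and maturation of cartilage and bone precursors, and activating mutations of the human FGFR3 gene cause achondroplasia.

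The cells were C3H10T1/2, a mouse mesenchymal stem cell line that was derived from embryos of the C3H strain. All libraries came from cells that carried a lentiviral construct, either a non-target control (NC) or an shRNA against Nap1l2 (KD-Nap1l2), a member of the nucleosome assembly protein family. Cells were taken before induction (NC and KD-Nap1l2) or after 7 days in osteogenic medium with dexamethasone, ascorbic acid and β-glycerophosphate (NC-7d and KD-Nap1l2-7d), with 2 RNA-seq libraries in each of the 4 groups. Whether a line was 1 clone or a pool, and whether the 2 libraries of a group came from separate cultures, is not given in the sources used here, so the p-values measure the spread between these samples, which may be technical.

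Library totals ran from 17420284 to 19427359 estimated counts, and 3 counts corresponded to 0.154 to 0.176 CPM (counts in each 1000000 counts of the library). Nap1l2 itself had 3 and 3 counts in NC, 2 and 7 in KD-Nap1l2, 15 and 5 in NC-7d, and 7 and 13 in KD-Nap1l2-7d. A lower Nap1l2 level in the knockdown groups was therefore not detectable at this depth, and these groups are called below by their labels. All 10 mesenchymal markers had counts in each group, with a summed FPKM (CPM for each 1000 bases of transcript) of 5281 to 5760 in NC, 5533 to 7751 in KD-Nap1l2, 3099 to 4379 in NC-7d and 2971 to 3363 in KD-Nap1l2-7d. Of the 9 osteoblast markers, Sp7, Alpl and Ibsp had 0 to 10 counts in all libraries, and the summed FPKM was 1697 to 1842 in NC, 2008 to 4046 in NC-7d, 2000 to 2125 in KD-Nap1l2 and 3412 to 3565 in KD-Nap1l2-7d. Spp1 and Col1a1 had the highest mean FPKM of these markers, and the sums do not show the direction of the others. Of the 6 tested markers, 1 was higher and 5 were lower in the control arm (median log2 fold change −0.47). In the cells labelled KD-Nap1l2, 3 were higher and 3 lower (median 0.30). By edgeR, 0 of the 6 were called in the control arm (8.21% of all genes). At an unadjusted p under 0.05, edgeR gave 1 higher and 2 lower there (24.5% of all genes in either direction). DESeq2 called 2 in the control arm, Spp1 higher and Dmp1 lower (11.5% of all genes). In the other arm edgeR called Spp1 higher and Runx2 and Col1a1 lower (6.84% and 7.36% of all genes). These edgeR calls did not hold in every fit with 1 library fewer. Spp1 was lost on leaving out any 1 of the 4 libraries (adjusted p from 0.0932 to 0.186 by edgeR), and Runx2 and Col1a1 without KD-Nap1l2 replicate 2 (0.101 and 0.0672), KD-Nap1l2-7d replicate 1 (0.202 and 0.148) or KD-Nap1l2-7d replicate 2 (0.152 and 0.135). The fall of Runx2 (log2 fold change −0.58) was not seen in FPKM (0.01 with limma). Summed FPKM of the epithelial, endothelial and blood cell markers was at most 2.82, 2.47 and 12.1, with Epcam at 0 or 1, Ptprc at 0 to 4 and Cdh1 at 27 to 150 counts per library.

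The 10 genes covered a wide range of levels per length. By FPKM averaged over the 8 libraries, the order was Fgf7 (123), Fgfr1 (92.4), Spry2 (28.6), Fgfr2 (19.3), Fgf10 (5.75), Fgf2 (2.10), Spry4 (1.68), Fgfr3 (0.831), Fgf1 (0.744) and Fgf18 (0.395). Only 3.05% of the genes in the table had a higher mean FPKM than Fgf7, and 4.30% had a higher one than Fgfr1. Spry2 and Fgfr2 also lay in the upper part of the table, whereas Fgfr3, Fgf1 and Fgf18 were below 1 FPKM. The library ranges of Fgf7 (91.8 to 170 FPKM) and Fgfr1 (73.7 to 118 FPKM) overlapped, as did those of Spry2 (14.9 to 66.0) and Fgfr2 (12.1 to 28.2), and those of each neighbouring pair from Fgf2 down to Fgf18. The range of Fgf10 (4.52 to 7.99 FPKM) overlapped with none of the other members.

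**Figure D1:**
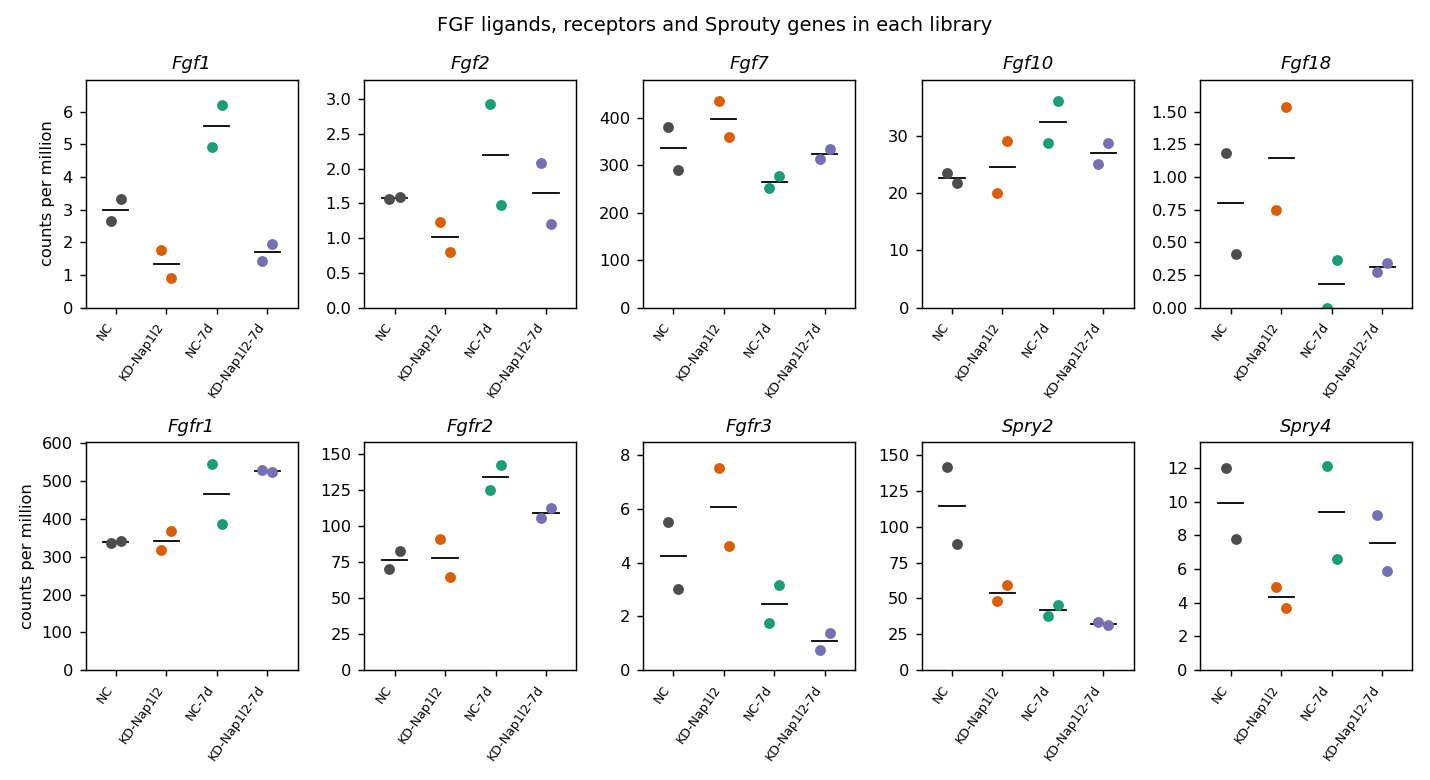
Level of each gene in CPM (vertical axis, from 0, scaled separately for each gene) in the 4 groups (horizontal axis); points are libraries and horizontal bars are the means of 2 libraries. The NC points of Spry2 lie above those of the other groups, and the KD-Nap1l2-7d points of Fgfr3 lie below those of the other groups.

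The first question was how these genes moved over 7 days of osteogenic induction in the control cells. In NC-7d against NC, 2 of the 10 genes passed the quasi-likelihood test of edgeR at a Benjamini-Hochberg adjusted p under 0.05, against 8.21% of all genes tested. Fgfr2 rose, where 4.83% of all genes were called higher, and Spry2 fell, where 3.38% were called lower. In KD-Nap1l2-7d against KD-Nap1l2, 1 of the 10 was called, against 14.2% of all genes. This was Fgfr3, which fell, with 7.36% of all genes called lower; none of the 10 was called higher, with 6.84% of all genes called higher. In bulk RNA, fewer cells of a type and less RNA per cell cannot be told apart.

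The libraries of the compared groups did not overlap for 7 of the 10 genes in NC-7d against NC (57.8% of all genes) and for 7 of the 10 in KD-Nap1l2-7d against KD-Nap1l2 (61.4% of all genes). Both shares are near the background of all genes.

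Among the receptors, each was called in at most 1 arm by edgeR: Fgfr2 in the control cells, Fgfr3 in the cells labelled KD-Nap1l2 and Fgfr1 in neither. Fgfr2 (chr7:130162451-130266808, GRCm38.p6) encodes a receptor whose splice forms bind Fgf7 and Fgf10 or other ligands. It was at 70.3 and 82.5 CPM in NC, 125 and 142 in NC-7d, 90.8 and 64.7 in KD-Nap1l2, and 106 and 112 in KD-Nap1l2-7d. Both induced groups lay above both uninduced groups without overlap. The log2 fold change of Fgfr2 was 0.80 (SE 0.18, n = 2 and 2, adjusted p = 0.034 by edgeR) in the control cells and 0.49 (SE 0.18, adjusted p = 0.109 by edgeR) in the cells labelled KD-Nap1l2. The call in the control cells was lost on leaving out any 1 of the 4 libraries, with adjusted p = 0.251 without NC replicate 1, 0.0877 without NC replicate 2, 0.07 when NC-7d replicate 1 was left out and 0.108 when replicate 2 of that group was, by edgeR. With the replicate number as a block it was also lost (adjusted p = 0.0556 by edgeR).

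Fgfr1 (chr8:25518759-25575718) encodes the main FGF receptor of many mesenchymal cells. It was at 335 and 340.2 CPM in NC, 546 and 386 in NC-7d, 317 and 367 in KD-Nap1l2, and 528 and 524 in KD-Nap1l2-7d. Each induced group lay above its uninduced group, but the NC-7d libraries differed from each other by more than the distance of the lower one from NC. Its log2 fold change was 0.47 (SE 0.18, adjusted p = 0.163 by edgeR) in the control cells and 0.62 (SE 0.18, adjusted p = 0.0577 by edgeR) in the cells labelled KD-Nap1l2, neither of which passed. DESeq2 called Fgfr1 in the latter comparison (adjusted p = 0.0115), as it did Spry2 (adjusted p = 0.0228) and Fgfr3 (adjusted p = 9.68e-05), 3 of the 10 genes against 17.7% of all genes.

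Fgfr3 (chr5:33721724-33737068) encodes a receptor best known from cartilage. Its counts were low, at 14 to 140 per library. It was at 7.51 and 4.62 CPM in KD-Nap1l2 and at 0.769 and 1.37 CPM in KD-Nap1l2-7d, and the groups did not overlap. In the control cells it was at 5.51 and 3.02 CPM in NC and at 1.76 and 3.15 CPM in NC-7d, and the groups overlapped. The fall in the cells labelled KD-Nap1l2 was 5.65-fold (log2 fold change −2.50, SE 0.49, adjusted p = 0.0171 by edgeR), and the log2 fold change in the control cells was −0.79 (SE 0.46, adjusted p = 0.333 by edgeR). Without KD-Nap1l2-7d replicate 1 the first of these had an adjusted p of 0.138 by edgeR, and without KD-Nap1l2-7d replicate 2 of 0.0775, at log2 fold changes of −2.14 and −2.97.

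Spry2 (chr14:105891947-105896819), which encodes an inhibitor of receptor tyrosine kinase signalling to ERK, stood highest in the uninduced control cells. It was at 141 and 88.0 CPM in NC, 38.1 and 45.5 in NC-7d, 48.5 and 59.2 in KD-Nap1l2, and 33.5 and 31.5 in KD-Nap1l2-7d. Every NC library lay above every other library, and the 2 NC libraries also differed most from each other (115 ± 37.8 CPM, SD, n = 2). After induction Spry2 fell 2.74-fold in the control cells (log2 fold change −1.46, SE 0.23, adjusted p = 0.0103 by edgeR). In the cells labelled KD-Nap1l2 its log2 fold change was −0.73 (SE 0.23, adjusted p = 0.0695 by edgeR), and the groups did not overlap. The call in the control cells was lost without NC replicate 1 (log2 fold change −1.07, adjusted p = 0.0597 by edgeR) and without NC-7d replicate 1 (−1.33, adjusted p = 0.0516).

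Spry4, on chromosome 18, encodes an inhibitor of the same family and was far less abundant per length. It was at 12.0 and 7.79 CPM in NC, 12.1 and 6.62 in NC-7d, 4.93 and 3.71 in KD-Nap1l2, and 9.17 and 5.89 in KD-Nap1l2-7d. The control groups overlapped fully, while the KD-Nap1l2 libraries lay below all others. Its log2 fold change with induction was −0.08 (SE 0.37, adjusted p = 0.919 by edgeR) in the control cells and 0.80 (SE 0.38, adjusted p = 0.196 by edgeR) in those labelled KD-Nap1l2. In the control cells the sign turned without NC replicate 1 (0.26) and without NC-7d replicate 2 (0.29).

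None of the 5 ligands passed the test in either induction comparison by edgeR or DESeq2. Over all genes, edgeR called 8.21% in the control arm and 14.2% in the other, and DESeq2 11.5% and 17.7%. At an unadjusted p under 0.05, edgeR gave 2 of the 5 in the control cells (Fgf1 and Fgf10; 24.5% of all genes) and 0 in the cells labelled KD-Nap1l2 (31.4% of all genes). Fgf7 (chr2:126034658-126091185), also called keratinocyte growth factor, is made by mesenchymal cells and acts on epithelia. It was at 381 and 291 CPM in NC, 251 and 277 in NC-7d, 436 and 359 in KD-Nap1l2, and 313 and 334 in KD-Nap1l2-7d. The induced libraries lay below the uninduced ones of the same construct, by log2 fold changes of −0.35 (SE 0.17, adjusted p = 0.265 by edgeR) and −0.30 (SE 0.17, adjusted p = 0.276 by edgeR). Leaving out NC replicate 1 or 2 moved the former to −0.14 or −0.53, and leaving out KD-Nap1l2 replicate 1 or 2 moved the latter to −0.15 or −0.43.

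Fgf10 (chr13:118714699-118792573), a mesenchymal ligand with a role in limb and lung budding, was at 23.5 and 21.7 CPM in NC and 28.7 and 36.0 in NC-7d. In the cells labelled KD-Nap1l2 it was at 19.9 and 29.1 CPM before and 25.1 and 28.7 after induction. Only the control groups were separated (log2 fold change 0.52, SE 0.21, adjusted p = 0.17 by edgeR), and the value in the other arm was 0.14 (SE 0.21, adjusted p = 0.693 by edgeR), which turned to −0.11 without KD-Nap1l2 replicate 1.

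Fgf1, on chromosome 18, encodes a ligand that binds all FGF receptors. It was at 2.64 and 3.33 CPM in NC, 4.93 and 6.20 in NC-7d, 1.77 and 0.912 in KD-Nap1l2, and 1.43 and 1.95 in KD-Nap1l2-7d. NC-7d was highest, and both groups labelled KD-Nap1l2 lay below NC. With induction its log2 fold change was 0.90 (SE 0.35, adjusted p = 0.165 by edgeR) in the control cells and 0.32 (SE 0.39, adjusted p = 0.614 by edgeR) in the other arm, where it was −0.069 without KD-Nap1l2 replicate 2.

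Fgf2 (chr3:37348477-37410106), or basic FGF, and Fgf18 (chr11:33116970-33147400), a ligand of the growing skeleton, were near the limit of detection. Fgf2 had 14 to 50 counts per library, and its induced and uninduced libraries overlapped in both arms (log2 fold change 0.47 in the control arm, and −0.098 without NC-7d replicate 1). Fgf18 had 22 and 8 counts in NC, 0 and 7 in NC-7d, 14 and 27 in KD-Nap1l2, and 5 and 6 in KD-Nap1l2-7d. The induced libraries of Fgf18 lay below the uninduced ones in both arms (log2 fold changes −2.02, SE 0.996, adjusted p = 0.261, and −1.86, SE 0.90, adjusted p = 0.2, by edgeR). A count of 0 allows up to 3 counts in that library, so the size of the first of these values is loosely set.

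**Figure D2:**
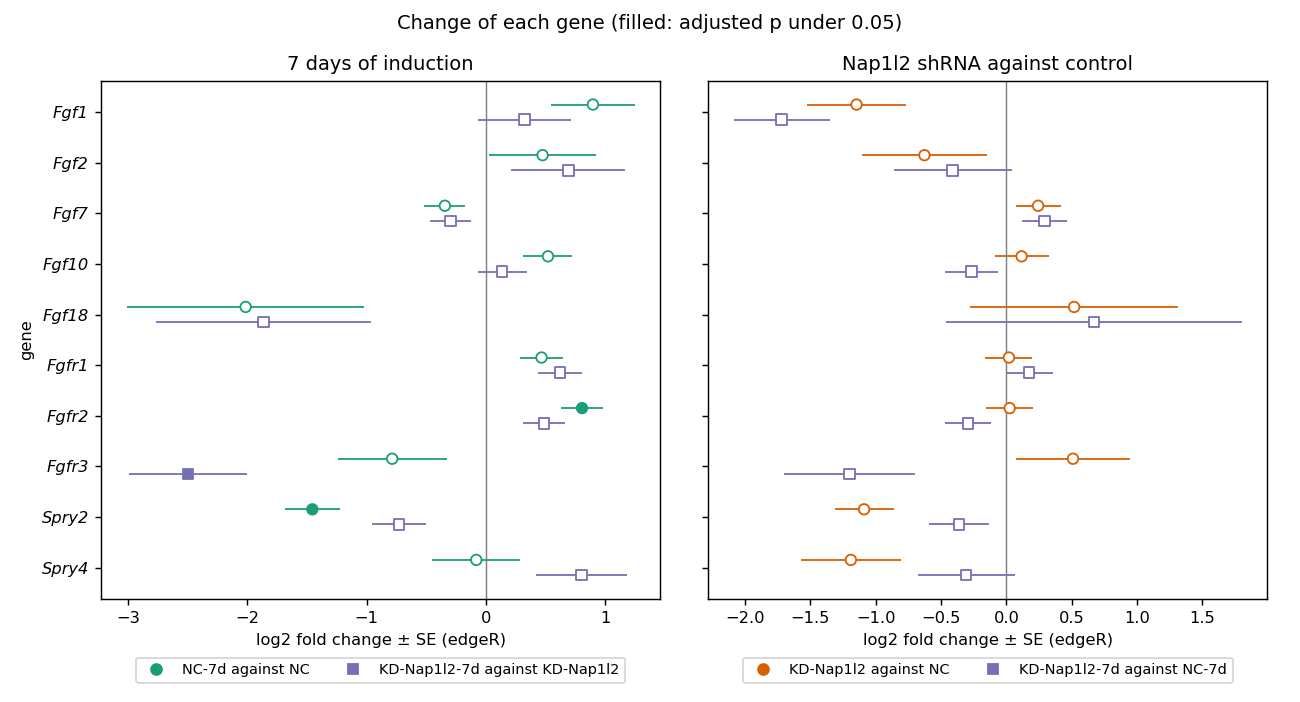
Log2 fold change of each gene (horizontal axis, with the standard error as bars) over 7 days of induction (left, both constructs) and between cells labelled KD-Nap1l2 and control cells (right, both time points). Filled symbols passed an adjusted p of 0.05 by edgeR: Fgfr2 and Spry2 in the control cells and Fgfr3 in the cells labelled KD-Nap1l2.

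The promoters of the 3 genes that passed in an induction comparison are shown to let their start regions be compared. The windows are from RefSeq on GRCm38.p6 and run from 250 bases before to 50 bases after the gene's start. They are written 5′ to 3′ on the gene's strand, and capitals mark a match to one of the motifs named below. The Spry2 window is chr14:105896770-105897069 (minus strand), the Fgfr2 window is chr7:130266759-130267058 (minus strand) and the first of the 2 Fgfr3 windows is chr5:33721474-33721773 (plus strand).
Spry2: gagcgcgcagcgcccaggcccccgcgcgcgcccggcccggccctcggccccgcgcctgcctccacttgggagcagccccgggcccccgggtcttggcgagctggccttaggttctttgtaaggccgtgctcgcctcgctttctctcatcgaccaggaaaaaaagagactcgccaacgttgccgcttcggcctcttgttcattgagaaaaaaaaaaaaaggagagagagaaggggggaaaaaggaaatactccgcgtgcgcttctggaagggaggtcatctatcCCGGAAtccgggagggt
Fgfr2: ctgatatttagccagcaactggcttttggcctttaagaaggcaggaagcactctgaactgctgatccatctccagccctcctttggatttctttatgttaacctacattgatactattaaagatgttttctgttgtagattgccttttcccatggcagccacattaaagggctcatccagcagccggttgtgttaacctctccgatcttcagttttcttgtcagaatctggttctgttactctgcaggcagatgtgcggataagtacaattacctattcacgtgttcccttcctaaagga
Fgfr3: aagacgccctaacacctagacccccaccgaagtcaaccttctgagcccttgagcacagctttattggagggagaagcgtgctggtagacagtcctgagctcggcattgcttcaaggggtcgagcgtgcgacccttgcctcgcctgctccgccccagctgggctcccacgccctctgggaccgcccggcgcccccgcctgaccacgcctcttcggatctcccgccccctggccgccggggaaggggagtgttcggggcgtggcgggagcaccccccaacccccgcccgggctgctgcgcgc

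Windows were given for 7 of the 10 genes. The Fgf2 window (chr3:37348403-37348702) and the second Fgfr3 window (chr5:33722056-33722355) are set around a start inside the gene, not its first base. The Spry2 window held 62.7% G and C and 28 CpG dinucleotides, the first Fgfr3 window 69.7% and 26, and the Fgfr2 window 43.7% and 4, against a median of 52.7% G and C over the 32851 windows of all genes. Searched on both strands, the ETS core CCGGAA was found once in the Spry2 window, from base 284, and in none of the other members' windows; 14.9% of all windows hold it. The AP-1 motif TGANTCA (7.81% of all windows) and the glucocorticoid receptor hexamer AGAACA (19.0% of all windows) were in no window of the 7 genes. The 3 motifs do not contain one another. A match is a description of letters, and no match says only that these letters are not in the window.

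The next question was whether the cells labelled KD-Nap1l2 differed from the control cells. In KD-Nap1l2 against NC, edgeR called 0 of the 10 genes, against 0.0817% of all genes tested, and 3 of the 10 (Spry2, Spry4 and Fgf1) had an unadjusted p under 0.05, against 13.7% of all genes. Spry2 was 2.13-fold lower (log2 fold change −1.09, SE 0.23, adjusted p = 0.11 by edgeR), with the lower NC library at 88.0 CPM and the higher KD-Nap1l2 library at 59.2 CPM. DESeq2 called 1 of the 10, Spry2 (adjusted p = 0.00101), against 3.64% of all genes, and edgeR without a filter on low counts called it too (adjusted p = 0.0435). Spry4 had a log2 fold change of −1.19 (SE 0.38, adjusted p = 0.233 by edgeR) and Fgf1 one of −1.15 (SE 0.38, adjusted p = 0.244 by edgeR).

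The groups did not overlap for 4 of the 10 genes before induction (43.2% of all genes), namely Fgf1, Fgf2, Spry2 and Spry4, each lower in KD-Nap1l2. For Fgf2 the log2 fold change was −0.63 (SE 0.48, adjusted p = 0.616 by edgeR). The receptors were near 0 or positive, with log2 fold changes of 0.02 for Fgfr1, 0.03 for Fgfr2 and 0.51 (SE 0.44, adjusted p = 0.663 by edgeR) for Fgfr3, and Fgf7 was at 0.24 (SE 0.17, adjusted p = 0.586 by edgeR). The KD-Nap1l2 libraries are also the uninduced side of the induction comparison in that arm, so a low or high level in them enters both comparisons. Spry2 and Spry4 were lower in both of these libraries than in both NC libraries, while Fgfr3 overlapped between the groups.

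In KD-Nap1l2-7d against NC-7d, edgeR called 0 of the 10 genes and 0% of all genes tested, and 2 of the 10 (Fgf1 and Fgfr3) had an unadjusted p under 0.05, against 7.85% of all genes. Fgf1 was 3.29-fold lower in the KD-Nap1l2-7d libraries (log2 fold change −1.72, SE 0.37, adjusted p = 0.443 by edgeR). DESeq2 called 1 of the 10, Fgf1 (adjusted p = 0.0494), against 0.674% of all genes. Fgf1 was lower in the labelled knockdown libraries at both time points without overlap. Fgfr3 had a log2 fold change of −1.20 (SE 0.50, adjusted p = 0.621 by edgeR).

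After induction, the groups did not overlap in CPM for 6 of the 10 genes (42.1% of all genes). For Fgf10 the nearest libraries were all but equal, at 28.68 CPM in NC-7d and 28.67 in KD-Nap1l2-7d, and in FPKM they overlapped (6.08 and 6.16). Of these, Fgf7 was higher in KD-Nap1l2-7d (log2 fold change 0.29, SE 0.17, adjusted p = 0.742 by edgeR), and Fgf1, Fgf10, Fgfr2, Fgfr3 and Spry2 were lower. The log2 fold changes were −0.27 (SE 0.20) for Fgf10, −0.29 (SE 0.18) for Fgfr2 and −0.36 (SE 0.23) for Spry2, with adjusted p-values from 0.75 to 0.819 by edgeR.

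The induction responses of the 2 arms were compared directly with an interaction term. It called 0 of the 10 genes and 0% of all genes tested by edgeR, and DESeq2 also called 0 of the 10 (0.781% of all genes). Fgfr3 was the 1 gene of the 10 with an unadjusted p under 0.05 (difference of log2 fold changes −1.71, SE 0.67, adjusted p = 0.681 by edgeR). The share of all genes at that threshold was not counted for the interaction term. For Spry2 the difference was 0.73 (SE 0.32, adjusted p = 0.703 by edgeR) and for Spry4 0.88 (SE 0.53, adjusted p = 0.775 by edgeR). The fall of Fgfr3 in one arm, and the calls of Fgfr2 and Spry2 in the other, are therefore not shown to differ between the arms.

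The transcript table gave a second view of the same reads. Fgf7, Fgf10, Fgf18 and Spry4 had 1 transcript each, and the lead transcript of Spry2 held 93.8% to 98.4% of its counts. Fgfr1 was divided among 8 transcripts, of which NM_001079909.2 held 36.4% to 57.2% and XM_006509013.1 held 31.0% to 40.6% of the counts per library. Fgfr2 was divided among 9, and its curated transcripts held between 0% and 4.45% of the counts, the rest going to predicted ones. The share of NM_001079909.2 was 49.8% and 47.1% in NC, 48.7% and 38.9% in NC-7d, 46.8% and 36.4% in KD-Nap1l2, and 50.3% and 57.2% in KD-Nap1l2-7d. The control groups overlapped in this share and the other arm did not, while the share of XM_006509013.1 overlapped in both arms. No test was run, and how often the shares of other transcripts separate was not counted.

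Fgfr3 was divided among 18 transcripts, and the lead transcript differed between libraries, with 6 different ones in the 8 libraries. For Fgf1 the single curated transcript held all counts in 3 of the 4 induced libraries and 77.2% in the other (NC-7d replicate 2), and 45.0% (NC replicate 2) or 0% in the uninduced ones. In both KD-Nap1l2 libraries all Fgf1 counts, 33.5 and 16.2, were given to 1 predicted transcript. At counts this low the division among transcripts rests on few reads. Counts of Fgf7 and Fgf10 were not whole in any library, and those of Fgf1 and Fgfr3 were whole in 2 and 4 of the 8, as happens when reads that match more than 1 gene are shared out, so their levels carry that uncertainty.

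**Figure D3:**
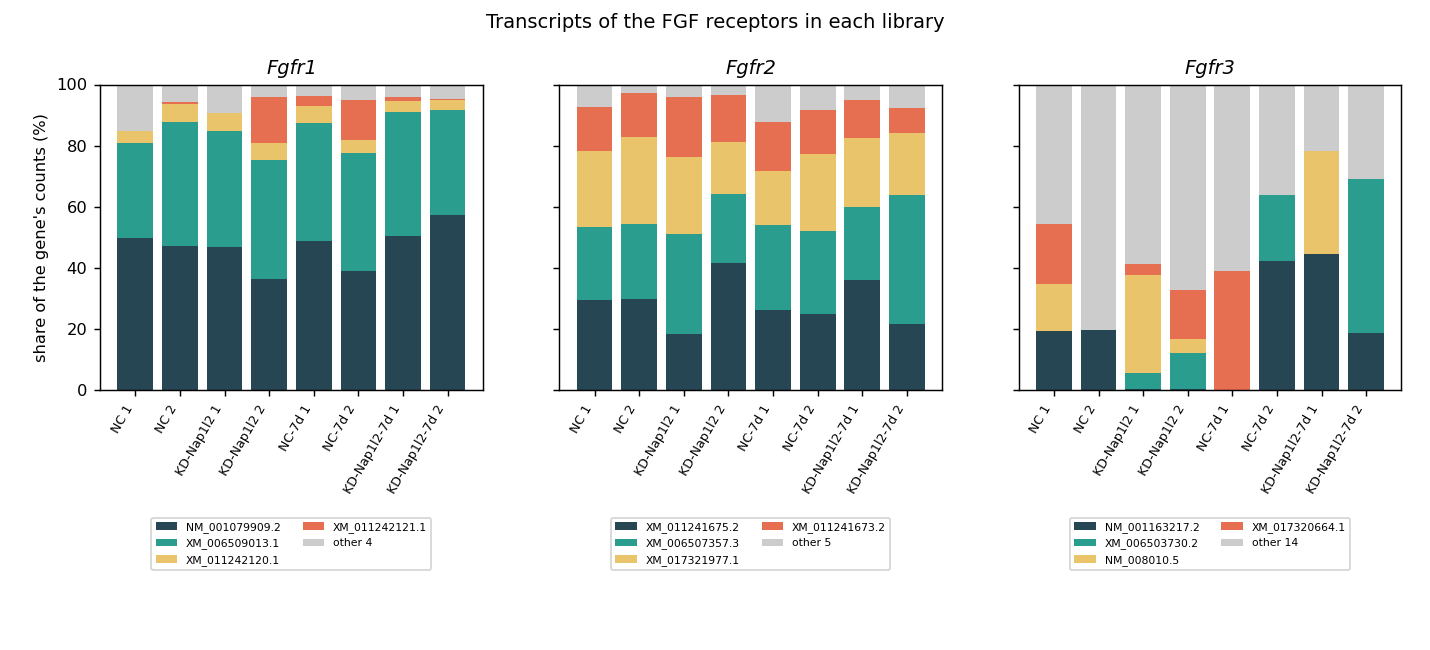
Share of each receptor gene's estimated counts (vertical axis, percent) given to its 4 most abundant transcripts by mean share and to the others together, in each of the 8 libraries (horizontal axis, group and replicate). The same 2 transcripts hold most Fgfr1 counts and the same 4 most Fgfr2 counts in every library, while the division of Fgfr3 differs from library to library.

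Heparan sulfate proteoglycans carry the chains that FGF ligands need to bind their receptors, and the list of these proteins and of the enzymes that build and sulfate the chains had 17 tested genes. In NC-7d against NC, edgeR called 4 of the 17 lower (Sdc3, Gpc1, Gpc6 and Hs6st2) and 0 higher. Of all genes tested, 3.38% were called lower and 4.83% higher. The median log2 fold change was −0.22 against −0.0035 over all genes tested. In KD-Nap1l2-7d against KD-Nap1l2, 10 of the 17 were called lower and 0 higher, against 7.36% and 6.84% of all genes. The median was −0.61 against −0.0071 over all genes. The 10 were the same 4 and the syndecans Sdc1 and Sdc2, the glypican Gpc4, perlecan (Hspg2), the chain polymerase subunit Ext2 and the 6-O-sulfotransferase Hs6st1. The list was chosen with earlier results of these data known, and few calls of pathway genes held with 1 library fewer, as given below. In the difference between the arms, edgeR and DESeq2 called 0 genes of the list (0% and 0.781% of all genes). By edgeR 5 had an unadjusted p under 0.05. The share of all genes at that threshold was not counted for this difference, so the 5 cannot be set against it.

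The glypican Gpc6 had the clearest separation, at 139 and 104 CPM in NC, 50.8 and 47.9 in NC-7d, 127 and 143 in KD-Nap1l2, and 27.7 and 32.2 in KD-Nap1l2-7d. Its log2 fold changes were −1.30 (SE 0.17, adjusted p = 0.00537 by edgeR) and −2.17 (SE 0.17, adjusted p = 0.000667 by edgeR). Gpc1 fell by 0.61 and by 1.06 on the log2 scale. The call of Gpc1 in the control arm was lost on leaving out any 1 of the 4 libraries (adjusted p from 0.0742 to 0.186 by edgeR). Sdc3 fell by 1.84 and by 1.67, but its KD-Nap1l2 libraries stood apart from each other at 70.3 and 224 CPM. Its call in the control arm was lost on leaving out any 1 of the 4 libraries (adjusted p from 0.111 to 0.232 by edgeR), and in the other arm without KD-Nap1l2 replicate 2 (log2 fold change −0.60, adjusted p = 0.0837) or without either induced library (adjusted p = 0.239 and 0.171). The members with the highest mean FPKM were Sdc4 and Sdc2. Sdc4 did not pass in either arm (log2 fold changes −0.10 and −0.35), and Sdc2 passed only in the cells labelled KD-Nap1l2 (−0.44 and −0.89), where it was lost without KD-Nap1l2 replicate 2 (adjusted p = 0.0841 by edgeR) and without either induced library (0.134 and 0.149). Mesenchymal markers moved in the same comparisons, with 2 of 10 called lower and 1 higher in the control arm (3.38% and 4.83% of all genes) and 6 of 10 called lower in the other (7.36% of all genes), and their part in these falls was not tested.

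Other receptors, coreceptors and FGF-binding proteins had 5 tested genes of 9. The membrane proteins Flrt1 and Flrt3, which bind FGF receptors, were called lower by edgeR in both arms. No gene of the list was called higher by either tool. Over all genes, edgeR called 3.38% lower and 4.83% higher in the control arm, and 7.36% and 6.84% in the other. DESeq2 did not call Flrt1 in the control arm (adjusted p = 0.0767), and by edgeR that call was lost on leaving out any 1 of the 4 libraries (adjusted p from 0.0889 to 0.257). In the other arm the call of Flrt1 was lost without KD-Nap1l2 replicate 2 (adjusted p = 0.0672 by edgeR) and without either induced library (0.139 and 0.0716). Flrt3 was at 11.3 and 9.27 CPM in NC, 2.29 and 2.26 in NC-7d, 6.54 and 10.2 in KD-Nap1l2, and 2.03 and 2.12 in KD-Nap1l2-7d (log2 fold changes −2.17 and −2.00, adjusted p = 0.00538 and 0.00525 by edgeR). Without NC replicate 1 the first had an adjusted p of 0.0555, and without KD-Nap1l2-7d replicates 1 or 2 the other had 0.0621 or 0.0542, by edgeR. The most abundant genes of this list, Fgfrl1 and Flrt2, were not called by edgeR, with log2 fold changes of −0.17 and −0.73 in the control arm (adjusted p = 0.0656 for Flrt2), and DESeq2 called Flrt2 there (adjusted p = 0.00987). Of the other 17 genes of the Fgf family, not all of which encode ligands of the receptors, 3 were tested. None of them was called by edgeR in either arm (8.21% and 14.2% of all genes). Only Fgf14, in the cells labelled KD-Nap1l2, had an unadjusted p under 0.05 by edgeR (31.4% of all genes). DESeq2 called it there (17.7% of all genes). Fgf14 and Fgf17 had the highest mean FPKM, and Fgf14 lay at 7.19 to 35.4 CPM.

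Among the 10 other feedback inhibitors of the pathway, 1 rose and 1 fell in the control arm (4.83% and 3.38% of all genes) and 3 rose and 1 fell in the cells labelled KD-Nap1l2 (6.84% and 7.36% of all genes). Il17rd (Sef), which acts on FGF receptor signalling, fell in both, from 46.8 and 57.6 CPM in NC to 22.6 and 27.0 in NC-7d, and from 49.2 and 38.0 in KD-Nap1l2 to 20.2 and 17.7 in KD-Nap1l2-7d. These calls were lost, by edgeR, without NC replicate 1, NC replicate 2 or NC-7d replicate 1 (adjusted p = 0.06, 0.072 and 0.0666) and without either KD-Nap1l2-7d library (0.0545 and 0.0747). Dusp6, the phosphatase that removes the activating phosphates of ERK, was at 57.0 and 40.6 CPM in NC, 79.8 and 70.7 in NC-7d, 29.2 and 28.5 in KD-Nap1l2, and 120 and 85.1 in KD-Nap1l2-7d. It rose in the cells labelled KD-Nap1l2 (log2 fold change 1.83, SE 0.21, adjusted p = 0.0027 by edgeR) and did not pass in the control cells (0.62, SE 0.21, adjusted p = 0.114). The difference between the arms was 1.20 (SE 0.30, adjusted p = 0.443 by edgeR), which DESeq2 called (adjusted p = 0.0376). Spry2 was lower and Dusp6 higher in every induced library than in every uninduced one of the same construct.

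Spry1, another Sprouty gene, was at 3.72 and 2.41 CPM in NC, 56.4 and 4.68 in NC-7d, 2.04 and 3.36 in KD-Nap1l2, and 71.4 and 29.9 in KD-Nap1l2-7d. It rose in the cells labelled KD-Nap1l2 (log2 fold change 4.23, SE 1.06, adjusted p = 0.0367 by edgeR), a call that was lost on leaving out any 1 of the 4 libraries (adjusted p from 0.0917 to 0.175). In the control arm, where the NC-7d libraries stood far apart, the value was 3.31 (SE 1.03, adjusted p = 0.0928), and it was 0.61 (adjusted p = 0.614) without NC-7d replicate 1 and 4.20 (adjusted p = 0.00584) without NC-7d replicate 2. DESeq2 called it (adjusted p = 0.0421). The phosphatase Dusp4 showed the same division of the NC-7d libraries (19.5 and 4.57 CPM) and rose in the cells labelled KD-Nap1l2 (2.30, SE 0.59, adjusted p = 0.0384 by edgeR), which was also lost on leaving out any 1 library (adjusted p from 0.106 to 0.182). In the control arm Dusp4 was at 2.15 (adjusted p = 0.0715 by edgeR, 0.00102 by DESeq2), at 0.76 (adjusted p = 0.267) without NC-7d replicate 1 and at 2.85 (adjusted p = 0.00361) without NC-7d replicate 2. Cbl, a ubiquitin ligase that targets receptors for degradation, rose in the control arm (0.76, SE 0.18, adjusted p = 0.0406 by edgeR) and lost the call on leaving out any 1 of the 4 libraries (adjusted p from 0.0627 to 0.278).

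**Figure D4:**
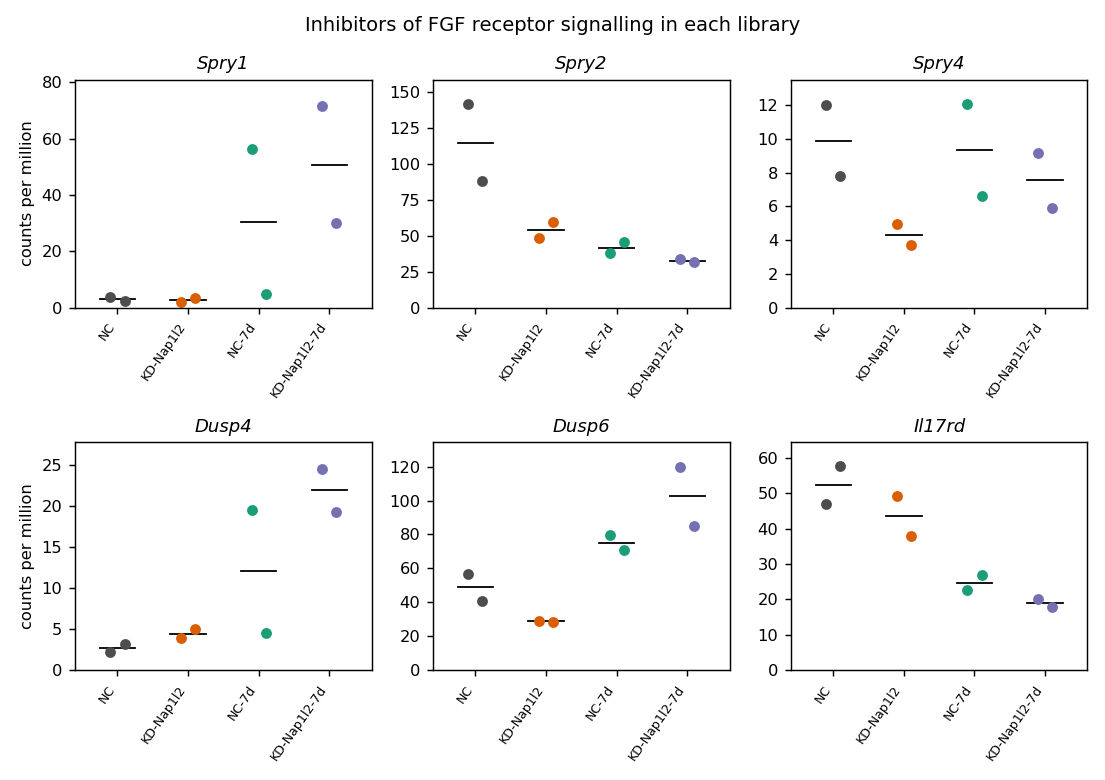
Level of 6 inhibitors of FGF receptor signalling in CPM (vertical axis, from 0, scaled separately for each gene) in the 4 groups; points are libraries and bars are the means of 2 libraries. Spry2 and Il17rd lie lower, and Dusp6 higher, after induction with both constructs, and the 2 NC-7d points of Spry1 (56.4 and 4.68) and Dusp4 (19.5 and 4.57) lie far apart.

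Of the 19 adaptors and members of the Ras-MAPK chain, 1 rose in the control arm (Plcg1, a phospholipase that binds the activated receptor, log2 fold change 0.55, SE 0.11, adjusted p = 0.0266 by edgeR) and 0 passed in the other by edgeR or DESeq2 (2 with an unadjusted p under 0.05 by edgeR). Of the 15 ERK-responsive transcription factor genes, 0 passed in the control arm by either tool (1 with an unadjusted p under 0.05 by edgeR). Myc rose in the cells labelled KD-Nap1l2 (0.61, SE 0.17, adjusted p = 0.0455 by edgeR). Over all genes, edgeR called 8.21% in the control arm and 14.2% in the other, and DESeq2 11.5% and 17.7%. At an unadjusted p under 0.05, edgeR gave 24.5% and 31.4% of all genes. Plcg1 and Myc each lost the call on leaving out any 1 of their 4 libraries (adjusted p from 0.0608 to 0.204 and from 0.0885 to 0.277). Egr1 and Ier3, the most abundant of these, differed widely between libraries of 1 group, with Egr1 at 699 and 217 CPM in NC and 104 and 814 in NC-7d. Of the 69 tested genes of the 6 pathway lists, edgeR called 0 in either comparison of cells labelled KD-Nap1l2 with control cells. Over all genes it called 0.0817% before induction and 0% after. At an unadjusted p under 0.05 it gave 7 before induction (13.7% of all genes) and 8 after (7.85% of all genes). DESeq2 called 2 before induction (Dusp6 and Sulf1, both lower, against 3.64% of all genes) and 0 after (0.674% of all genes). Sulf1, which removes sulfate from heparan sulfate chains, was at 11.3 and 13.4 CPM in NC and at 6.70 and 5.02 in KD-Nap1l2, without overlap.

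In the control arm edgeR called 9 of the 69 tested pathway genes (8.21% of all genes), and in the other arm 17 (14.2% of all genes). Few of these calls held with 1 library fewer. Calls over all genes also became fewer in most of these fits, as given in the last section. Of the 9 pathway genes called in the control arm, Gpc6 alone passed without each of the 4 libraries in turn, and of the 17 called in the other arm Dusp6, Gpc1 and Gpc6 did.

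**Figure D5:**
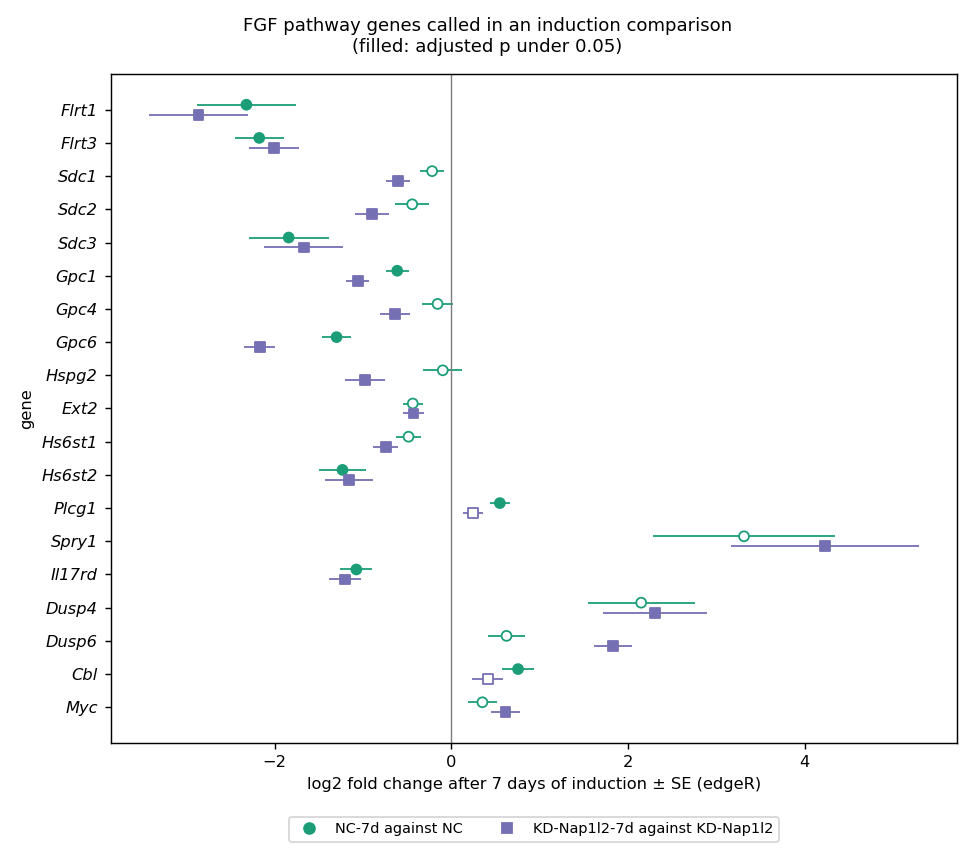
Log2 fold change over 7 days of induction (horizontal axis, with the standard error as bars) of the FGF pathway genes outside the 10 that passed in at least 1 arm (vertical axis, in list order). Filled symbols passed an adjusted p of 0.05 by edgeR; the heparan sulfate genes from Sdc1 to Hs6st2 lie below 0 in both arms, and Spry1, Dusp4, Dusp6 and Myc lie above 0.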

How the data were processed

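RNA-seq of C3H10T1/2 cells was analysed in 4 groups of 2 libraries, assigned by the sample labels. For every library the authors deposited estimated counts of genes and of transcripts, not normalized, and FPKM values, which they scaled to transcript length and library size. The processing notes of the submitters name BWA, Bowtie2, RSEM and the build GRCm38.p6, without versions or roles, and 41.1% of genes held a count that was not whole. Deposited tables of the authors' own comparisons (log2 fold changes, p-values and q-values) were not used.

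Estimated counts were rounded, genes were filtered with filterByExpr and scaled by TMM, and all 8 libraries were fitted together with 1 mean per group in edgeR 4.0.16 (R 4.3.3). Contrasts were tested by quasi-likelihood, with p-values adjusted by Benjamini-Hochberg over 13470 genes at a threshold of 0.05. Standard errors were computed as the absolute log2 fold change over the root of the F statistic. With 2 libraries a group, an exact permutation test of 1 gene cannot go below p = 0.333. CPM values are TMM-scaled, and a floor of 3 counts covers counting error only. The same script was tested on simulated data with 200 genes changed 2-fold or 4-fold. There edgeR recovered 45 of the 2-fold and 81 of the 4-fold changes, with 7 false calls. DESeq2 recovered 56 and 84, with 20 false calls. In a simulated KD-Nap1l2 against NC with no gene changed, edgeR made 0 and DESeq2 19 false calls. Alternatives were RLE size factors, DESeq2 1.42.0, no filter, a block for the replicate number, a minimum of 10 counts per library, a fit restricted to the compared groups, limma 3.58.1 on log2(FPKM + 1) and log2(FPKM + 0.1), and leaving out each library. The 10 genes and all lists were chosen with earlier results of these data known. By rule, the text names the 10 genes, list genes called in an induction or knockdown comparison, the 2 genes of each pathway list with the highest mean FPKM, and Nap1l2. Sulf1 and the osteoblast markers were named after their values were seen. One result on the adaptor and Ras-MAPK list is not reported here.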

Additional observations from a re-analysis of the deposited data

How the results depend on the processing

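Among the log2 fold changes of the 10 genes in every comparison and of the other called or named genes under the alternatives, 920 kept their direction and their side of the threshold, 125 kept the direction but no longer passed, 23 newly passed and 33 turned. The 125 can only come from results that had passed in the main fit. The 920 include results that passed in neither fit, so the tally does not measure how stable the calls were. Of the 10 genes, the number called in NC-7d against NC (2) was 1 with the replicate number as a block and 1 with limma on log2(FPKM + 1) or log2(FPKM + 0.1), where Fgfr2 was lost, and 0 to 1 when single libraries were left out. In KD-Nap1l2-7d against KD-Nap1l2 (1) it was 3 with DESeq2, 2 in a fit of only the libraries compared, 2 with either limma fit, and 0 to 2 when single libraries were left out. In KD-Nap1l2 against NC (0) it was 1 with DESeq2 and 1 without a filter, and in KD-Nap1l2-7d against NC-7d (0) it was 1 with DESeq2. The cause was not tested. With single libraries left out, log2 fold changes whose sign turned ranged as follows. In NC-7d against NC, Spry4 ranged from −0.58 to 0.29, Fgf2 from −0.098 to 0.89, Fgfrl1 from −0.34 to 0.038 and Sdc4 from −0.28 to 0.11. In KD-Nap1l2-7d against KD-Nap1l2, Fgf1 ranged from −0.069 to 0.88, Fgf10 from −0.11 to 0.44 and Sdc4 from −0.67 to 0.060. In KD-Nap1l2 against NC, Fgf10 ranged from −0.18 to 0.37, Fgf18 from −0.082 to 1.46, Fgfr1 from −0.090 to 0.12 and Fgfr2 from −0.24 to 0.25. In KD-Nap1l2-7d against NC-7d, Fgf2 ranged from −0.86 to 0.16, Fgf18 from −0.25 to 5.52, Fgfr1 from −0.053 to 0.45 and Spry4 from −0.68 to 0.19. In the difference between the arms, Fgf2 ranged from −0.24 to 0.79, Fgf7 from −0.16 to 0.23, Fgf18 from −0.79 to 4.998 and Fgfr1 from −0.073 to 0.43. With limma, Fgf18 turned in that difference (−0.097 on log2(FPKM + 1)), and Runx2 in KD-Nap1l2-7d against KD-Nap1l2 (0.011 on log2(FPKM + 1) and 0.012 on log2(FPKM + 0.1)). A sample left alone in its group was assumed to vary like the other groups.

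Over all genes, KD-Nap1l2 against NC gave 11 calls, and 462 with DESeq2, 160 without a filter, 4 with at least 10 counts in every library, 0 in a fit of only these libraries, 4 with the block, 33 and 18 with limma, 562 without KD-Nap1l2 replicate 1 and 0 to 3 without one of the others. For NC-7d against NC (1106) the count was 122 and 522 when NC replicates 1 and 2 were left out, and 581 and 926 for the NC-7d ones, and for KD-Nap1l2-7d against KD-Nap1l2 (1912) it was 305 and 330 without KD-Nap1l2-7d replicates 1 and 2 and 1181 without KD-Nap1l2 replicate 2. KD-Nap1l2-7d against NC-7d (0) gave 82 with DESeq2 and 1 without NC-7d replicate 1, and the difference between the arms (0) gave 97 with DESeq2, 1 without a filter and 19 without NC-7d replicate 1.

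Replicate numbers were not shown to pair the libraries: deviations of same-numbered libraries correlated at −0.0924 to 0.121 between groups. The block moved no other call of the 10 genes. Depth limits Fgf18, Fgf2, Fgf1 and Fgfr3, and Nap1l2 itself, for which no change was detectable.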
